A study of Mus musculus with 31 samples.

Results

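The Slc25a family of mitochondrial carriers was followed in mouse liver through every probe of the deposited microarray table whose gene name in the array design is Slc25a and a number. The rule reads gene names only, although the family itself was chosen with earlier results of these data known. It gave 89 of the 36057 probes of that table, which stand for 45 genes. The array design holds 104 such probes for 47 genes. The other 15 probes were too dim to be kept, and among them were the only probes of Slc25a31 and Slc25a54, so these genes were not tested.

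Liver RNA came from 31 male C57BL6/J mice, 1 single-color Agilent array per mouse. The 8 ChREBPβ-deficient mice (labelled ChREBPbeta_KO) lack exon 1b of Mlxipl in all tissues after CRISPR/Cas9 deletion and had 8 WT littermates (ChREBPbeta_WT). The 7 total ChREBP-KO mice (ChREBPtotal_KO) are Mlxipl-null and lack both ChREBP isoforms in all tissues, and 8 WT littermates (ChREBPtotal_WT) came from that line. Replicate 3 of the total ChREBP-KO group was not analysed here. All mice, the WT littermates included, were fasted for 24 hours and then refed for 18 hours with food and 20% glucose in the drinking water. The ages of the mice are not given in the sources used here.

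Mitochondrial carriers are small proteins of the inner mitochondrial membrane, nearly all of which exchange a metabolite of the matrix for one of the cytosol. In liver they join pathways that are split between these compartments. The citrate carrier exports carbon for fatty acid synthesis, the carnitine carrier imports acyl groups for oxidation, the ornithine carriers serve the urea cycle and the aspartate-glutamate carriers move reducing power inward. ChREBP, the product of Mlxipl, is a transcription factor that responds to glucose metabolites and activates glycolytic and lipogenic genes through carbohydrate response elements, which hold E-box sequences.

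Hepatocyte markers were bright on all arrays, with a mean log2 intensity of 16.11 to 16.57 over the 7 markers tested. Spots passing the filters numbered 34131 to 38612 per array. Mlxipl, read by a probe with a log2 intensity of 15.28 ± 0.12 (SD, n = 8) in the WT littermates, was 14.12 ± 0.13 (n = 7) in total ChREBP-KO mice. It read 14.64 ± 0.14 (n = 8) in ChREBPβ-deficient mice and 15.09 ± 0.17 (n = 8) in their littermates. Of the other 2 Mlxipl probes, 1 gave -0.59 in the total line (adjusted p = 0.00313) and -0.46 in the ChREBPβ line (adjusted p = 0.909), and 1 did not separate the groups, at 10.92 in total ChREBP-KO mice and 10.97 in their WT littermates (-0.05, adjusted p = 0.603). The place of these probes relative to the deleted sequences was not determined here. Exocrine pancreas markers were high in replicates 2, 7 and 8 of the WT littermates of the total line, with mean log2 intensities of 11.17, 9.99 and 10.06, against at most 9.26 on the other arrays. Of these pancreas markers, 2 of 5 tested had a lower call in the total ChREBP-KO mice, whose arrays ranged from 8.25 to 9.26 in the marker mean, against 8.26 to 11.17 in their WT littermates. Within the total line, adipocyte markers were highest in replicate 6 of the KO mice and replicates 2 and 5 of the WT littermates, at 9.61, 8.69 and 8.95. Replicates 6 and 7 of the ChREBPβ-deficient mice read 9.24 and 8.84. They were kept in the fits without the adipocyte-high arrays, which left out arrays of the total line only. Between total ChREBP-KO mice and their WT littermates, none of the Kupffer cell or endothelial markers was called. Higher were 2 of 7 hepatocyte markers and 1 of 5 each of the red blood cell, stellate cell and cholangiocyte markers. Over all genes tested, 17.3% were called higher and 17.1% lower in this comparison. Stellate cell markers were highest in replicates 1 and 4 of the total ChREBP-KO mice, at 9.96 and 9.54, against at most 8.96 on the other arrays. Cholangiocyte markers were highest in replicates 5 and 1 of these mice, at 8.90 and 8.51. No fit left out these arrays together. The part of other cell types in the family results was not tested. Calls were followed without the pancreas-high or adipocyte-high arrays for the carriers described in full and, in the other comparisons, for calls at the brightest probe. Those lost are given with both values. In total ChREBP-KO mice, the calls of Slc25a4, Slc25a12, Slc25a13, Slc25a21, Slc25a26, Slc25a27, Slc25a46 and Slc25a51 were not followed in this way.

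Promoter sequences are shown first because ChREBP acts on DNA and several carriers moved in its absence. RefSeq promoters on build GRCm38.p6 matched 34 of the 45 genes, with 44 windows of 250 bases ending at a transcription start. The windows were searched on both strands for the E-box CACGTG, for a carbohydrate response element as CACGNG and CNCGTG with 5 bases between them, and for a direct repeat bound by nuclear receptors such as PPARα, AGGTCA repeated after 1 base. The E-box was present for 6 of the 34 genes (17.6%), and for 6.86% of the 27025 genes in the whole promoter table. These 6 genes were Slc25a1, Slc25a13, Slc25a14, Slc25a15, Slc25a33 and Slc25a36. Matches to different motifs may overlap. Neither paired motif was found in a family window, and they occur in 0.0396% and 0.0335% of all windows. A match describes letters only and is not a binding site. The windows of the E-box carriers with a called probe are given 5′ to 3′ with the E-box in capitals, followed by those of Slc25a34 and Slc25a47, the carriers that changed most in each direction, in which no motif was found. The window of Slc25a47 lies inside the RefSeq gene, which begins at chr12:108849833, so bases before that position were not searched. Slc25a44, Slc25a41 and Slc25a35 are among the genes with no window.
Slc25a13, chr6:6217174-6217423, minus strand: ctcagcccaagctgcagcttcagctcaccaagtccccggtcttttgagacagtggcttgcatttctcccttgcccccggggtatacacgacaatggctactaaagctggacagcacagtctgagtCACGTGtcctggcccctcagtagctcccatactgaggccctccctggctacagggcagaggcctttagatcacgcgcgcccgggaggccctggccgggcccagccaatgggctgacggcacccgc
Slc25a15, chr8:22398278-22398527, minus strand: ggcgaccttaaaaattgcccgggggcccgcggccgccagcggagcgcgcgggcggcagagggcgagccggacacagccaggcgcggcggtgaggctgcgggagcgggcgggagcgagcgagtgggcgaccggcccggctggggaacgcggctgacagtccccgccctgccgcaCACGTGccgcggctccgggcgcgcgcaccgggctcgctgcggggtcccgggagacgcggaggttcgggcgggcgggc
Slc25a33, chr4:149774268-149774517, minus strand: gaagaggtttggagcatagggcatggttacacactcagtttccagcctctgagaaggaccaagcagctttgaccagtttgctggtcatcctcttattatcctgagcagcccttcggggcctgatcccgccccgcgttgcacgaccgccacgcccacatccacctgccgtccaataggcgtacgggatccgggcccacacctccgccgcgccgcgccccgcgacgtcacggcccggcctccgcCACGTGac
Slc25a34, chr4:141623835-141624084, minus strand: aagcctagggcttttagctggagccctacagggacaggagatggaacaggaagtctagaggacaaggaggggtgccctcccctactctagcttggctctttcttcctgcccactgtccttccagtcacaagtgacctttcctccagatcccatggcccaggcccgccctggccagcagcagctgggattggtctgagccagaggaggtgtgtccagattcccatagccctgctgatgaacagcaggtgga
Slc25a47, chr12:108850879-108851128, plus strand: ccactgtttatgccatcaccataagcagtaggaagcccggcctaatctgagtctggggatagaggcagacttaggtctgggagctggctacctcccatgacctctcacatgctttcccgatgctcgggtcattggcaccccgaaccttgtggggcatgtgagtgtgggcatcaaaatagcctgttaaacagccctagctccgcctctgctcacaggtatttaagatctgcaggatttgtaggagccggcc

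The main comparison asked which carriers differ in the refed liver of mice that lack both ChREBP isoforms in all tissues. In total ChREBP-KO mice, 14 Slc25a genes were higher than in WT littermates and 10 were lower, with 21 of the 45 not called (limma, adjusted p under 0.05 for at least 1 probe). Over all 23968 genes tested, 17.3% were called higher, 17.1% lower and 33.9% either way, against 53.3% of the carriers. Carriers have more probes per gene than the array as a whole, and per probe 37.1% of the family was called, beside 29.1% of all probes. The call of 1 of the 14, Slc25a21, came from a probe that passed the filter only through the KO arrays, which leaves 13 without it. The carriers moved in both directions: the median log2 difference over the 89 probes was -0.0014, and 0.0083 over all 36059 probes. The middle of the family spread more widely, from -0.18 to 0.20 between quartiles, against -0.12 to 0.13 for all probes. For 9 family probes the KO and WT arrays did not overlap, 4 above and 5 below, beside 7.40% of all probes either way, 3.26% above and 4.14% below. Without the 3 arrays high in pancreas markers, 12 genes were called higher and 7 lower. Not all of the lower calls lost belong to carriers that were followed gene by gene. In bulk liver RNA, fewer cells of a type and less RNA per cell cannot be told apart.

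**Figure D1:**
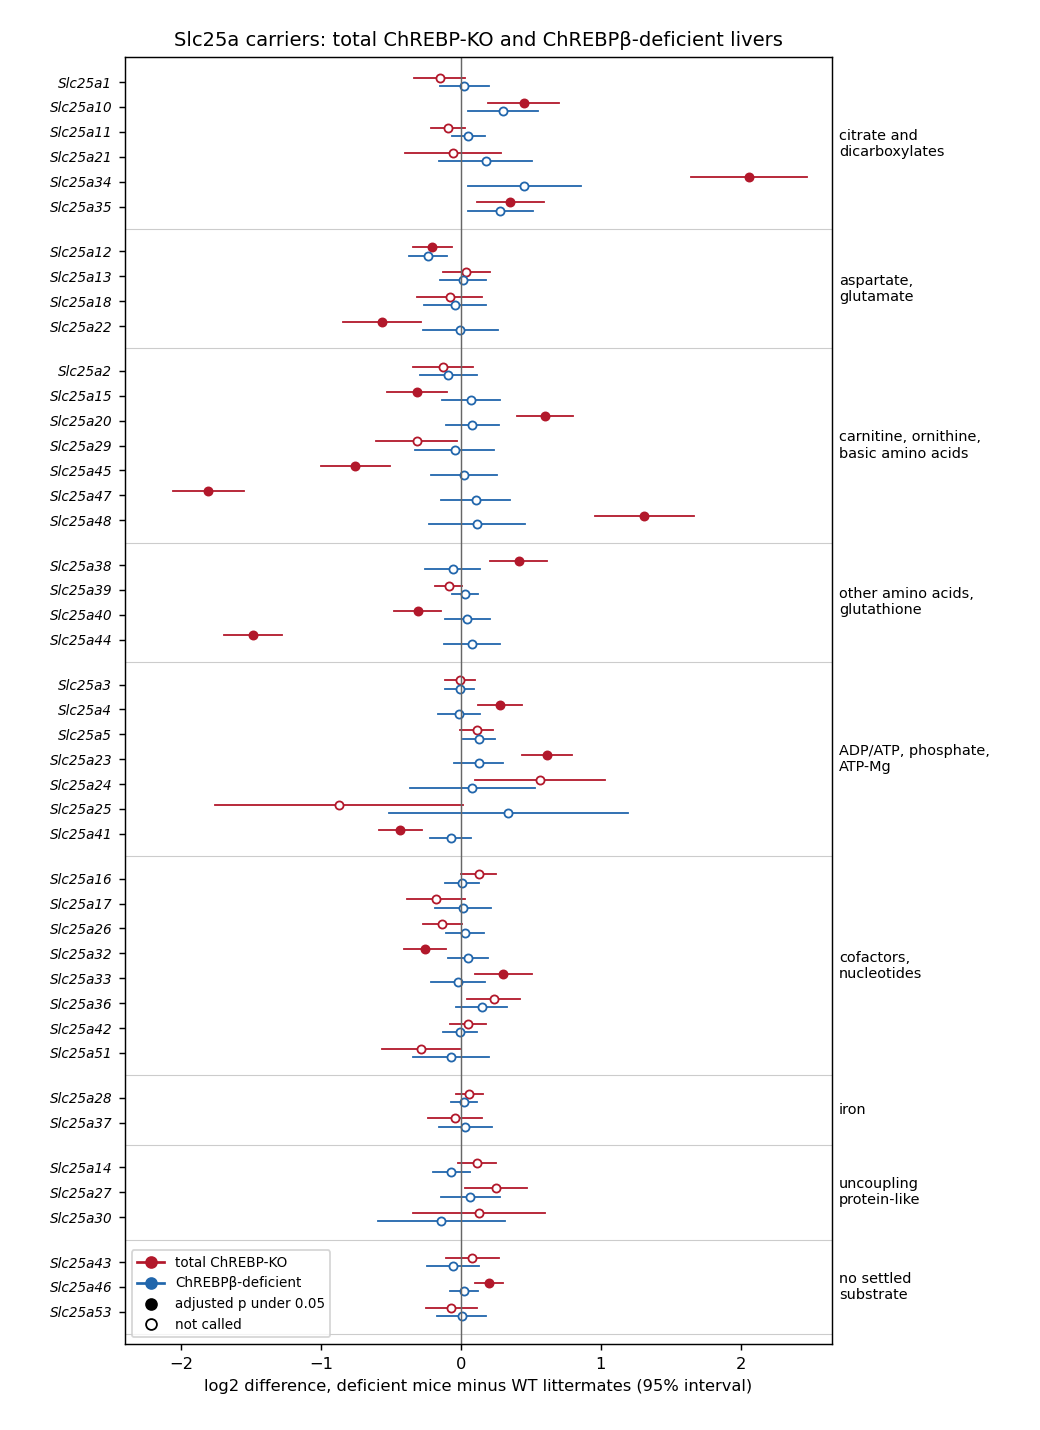
Log2 difference with its 95% interval for the Slc25a genes, grouped by the role listed for the carrier, in total ChREBP-KO mice (red) and ChREBPβ-deficient mice (blue), each against WT littermates. Slc25a34 and Slc25a35 are placed with the dicarboxylate carriers by relation. Each gene is shown by its probe with the highest mean, filled where the adjusted p is under 0.05. Slc25a34 and Slc25a48 lie farthest to the right at 2.06 and 1.31, Slc25a47 and Slc25a44 farthest to the left at -1.80 and -1.49, and no blue point is filled.

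Of the 6 genes listed as citrate and dicarboxylate carriers, 4 were called higher in total ChREBP-KO mice, 3 without the call of Slc25a21 that the filter set, and none lower, with a median log2 difference of 0.06 over 13 probes. The list holds Slc25a34 and Slc25a35 by relation, and Slc25a34 has no settled substrate. Apart from these relatives and Slc25a21, only Slc25a10 was called. Slc25a1, the citrate carrier, had log2 intensities of 12.34, 12.77 and 13.02 (lowest, median and highest) in the KO mice and of 12.62, 12.81 and 13.12 in the WT littermates. These ranges largely overlapped, and the log2 difference of -0.15 (95% interval -0.33 to 0.03, adjusted p = 0.213) was not called. Its other probe gave -0.18 (adjusted p = 0.118).

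Slc25a10, the dicarboxylate carrier, which exchanges malate and succinate for phosphate, had log2 intensities of 8.46, 9.11 and 9.43 in the KO mice and of 8.30, 8.64 and 8.88 in the WT littermates. Most KO mice lay above the highest WT mouse, with 2 exceptions. The log2 difference was 0.45 ± 0.13 (SE, adjusted p = 0.00724), a 1.36-fold higher level, and it was 0.68 among arrays scanned on the first day and 0.19 among those of the second.

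Slc25a34, a carrier related to these by sequence with no settled substrate, rose most in the family. Its log2 intensity was 8.65, 8.92 and 9.30 in the KO mice and 6.36, 6.84 and 7.40 in the WT littermates. Every KO mouse lay above every WT mouse, and the level was 4.17-fold higher (log2 difference 2.06 ± 0.20, adjusted p = 3.62e-09). Slc25a35, its near relative, was higher by 0.35 ± 0.12 (adjusted p = 0.0221) with overlapping groups. Only 1 of its 3 probes was called, and the lowest value among the 3 was -0.04. The called probe was dim, with means on the 2 scan days of 6.04 and 5.96 in the KO mice and 5.58 and 5.72 in the WT littermates. The call of Slc25a35 was lost without KO replicate 5 (0.26, adjusted p = 0.0752), without KO replicate 6 (0.30, 0.0592), without the 3 arrays high in pancreas markers (0.27, 0.155) and with slides as blocks (0.36, 0.101). Slc25a21, the oxodicarboxylate carrier, was called by its dimmest probe only, which was above background on 6 of the 7 KO arrays and on none of those of the WT littermates. It passed the filter through the KO arrays alone, so its value of 0.39 supports no call, and the other probes gave 0.08 and -0.05. Slc25a11, the oxoglutarate-malate carrier, was not called (-0.09, adjusted p = 0.271).

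Carnitine, ornithine and basic amino acid carriers with their near relatives split, with 2 of 7 higher and 3 lower and a median of -0.32 over 9 probes. Slc25a20, the carnitine-acylcarnitine carrier of fatty acid oxidation, had log2 intensities of 9.93, 10.40 and 10.55 in the KO mice and of 9.48, 9.74 and 10.13 in the WT littermates. A single KO mouse fell within the WT range. The level was 1.52-fold higher (log2 difference 0.60 ± 0.10, adjusted p = 2e-05), and within scan days it was 0.89 and 0.28.

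Slc25a48, described as a carrier of choline, had log2 intensities of 10.35, 10.43 and 10.58 in the KO mice and of 8.64, 9.16 and 9.81 in the WT littermates. The groups did not overlap, and the 7 KO mice were closely spaced, with an SD of 0.09 against 0.41 in the WT littermates. The level was 2.48-fold higher (log2 difference 1.31 ± 0.17, adjusted p = 7.42e-07), and its other probe gave 0.88 (adjusted p = 6.57e-06).

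Slc25a47, a carrier found mainly in liver, showed the largest decrease. Its log2 intensity was 13.63, 13.99 and 14.26 in the KO mice and 15.49, 15.74 and 16.11 in the WT littermates. The lowest WT mouse stood well above the highest KO mouse. The level was 3.49-fold lower (log2 difference -1.80 ± 0.12, adjusted p = 4.35e-12), and within scan days it was -1.76 and -1.84. Slc25a45, a relative of the basic amino acid carriers, ranged from 10.96 to 11.50 in the KO mice (median 11.08) and from 11.53 to 12.22 in the WT littermates (median 11.86). The ranges met closely without overlap, and the log2 difference was -0.75 ± 0.12 (adjusted p = 1.46e-05). Its other probe also separated the groups, at -0.70.

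Slc25a15, the ornithine carrier of the urea cycle, had log2 intensities of 8.48, 8.82 and 9.23 in the KO mice and of 8.75, 9.18 and 9.37 in the WT littermates. The groups overlapped over most of the WT range. The log2 difference was -0.32 ± 0.10 (adjusted p = 0.0221), and the call was lost without KO replicate 1 (-0.26, adjusted p = 0.0661), without KO replicate 6 (-0.28, 0.0562), without the 3 arrays high in pancreas markers (-0.26, 0.111) and without those high in adipocyte markers (-0.27, 0.0874). Fitting the groups of the total line alone also lost it (-0.32, adjusted p = 0.0552). Slc25a2, the other ornithine carrier, was dim, at 5.15 to 6.04 in the KO mice and 5.37 to 5.99 in the WT littermates, and was not called (-0.13, adjusted p = 0.395). Slc25a29, which carries basic amino acids, was not called either (-0.32, adjusted p = 0.0956).

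**Figure D2:**
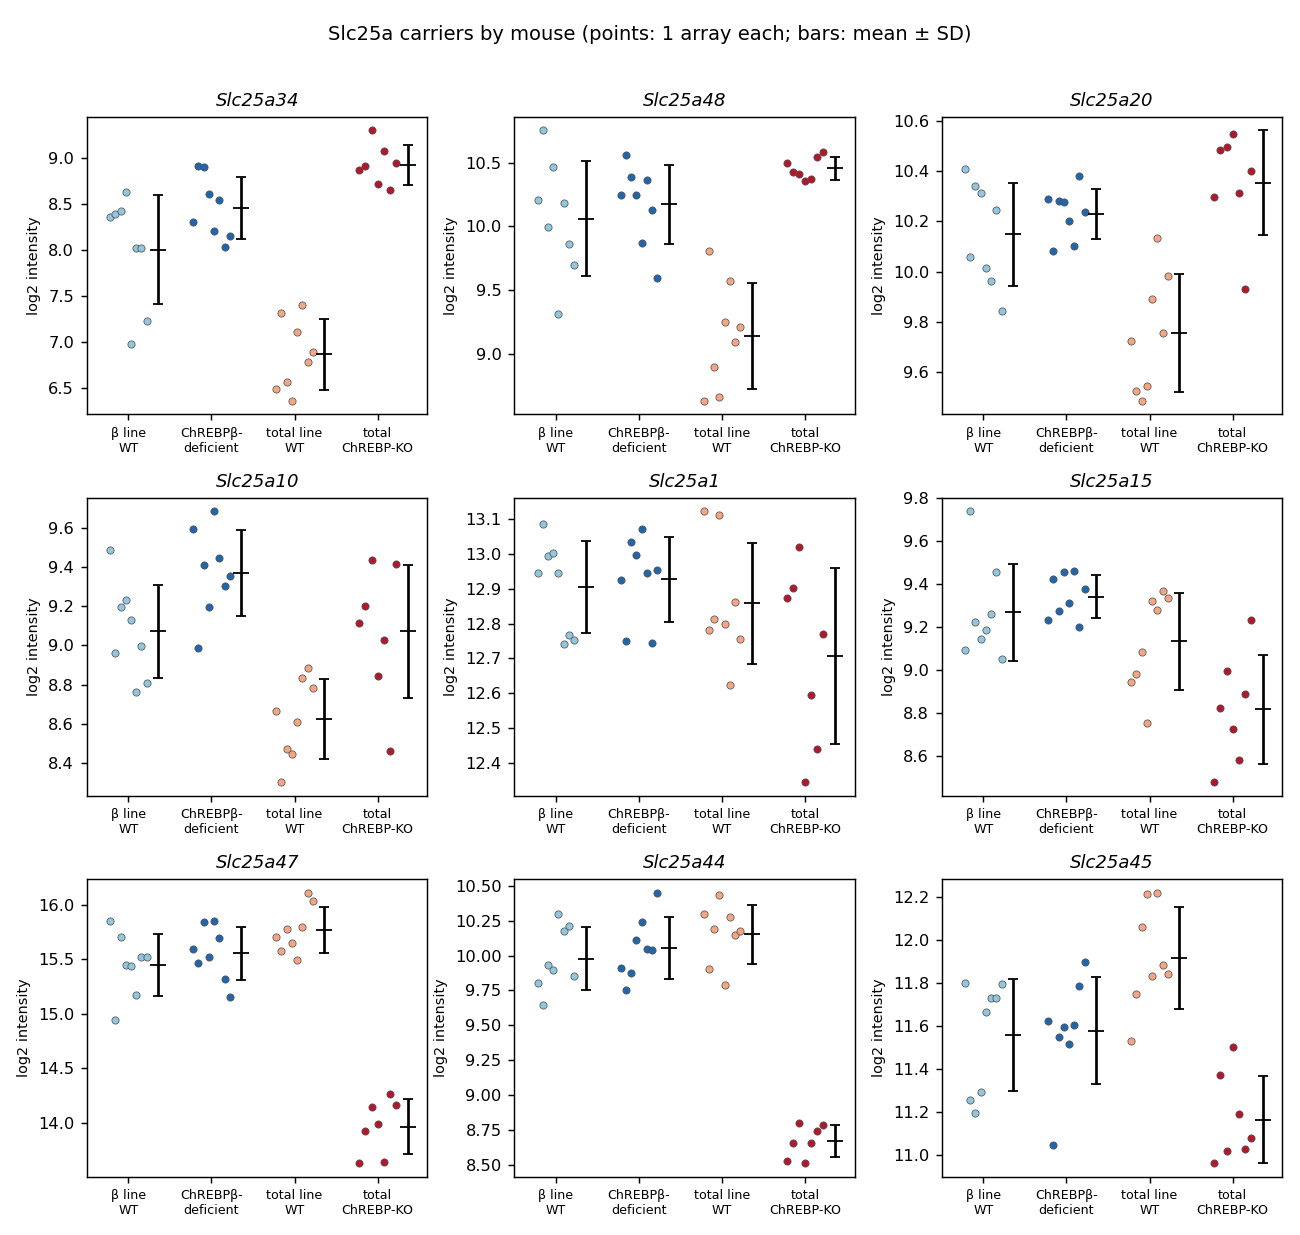
Log2 intensity of 9 carriers in each mouse, with the mean and SD beside the points of each group (8, 8, 8 and 7 mice from left to right). For Slc25a34, Slc25a48, Slc25a47, Slc25a44 and Slc25a45 the total ChREBP-KO mice do not overlap their WT littermates, while Slc25a1 overlaps in every group. Each panel has its own axis, and levels are not comparable between panels.

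The aspartate and glutamate carriers gave 2 of 4 genes lower and 1 higher. Slc25a22, a mitochondrial glutamate carrier, had log2 intensities of 10.61, 10.96 and 11.39 in the KO mice and of 11.29, 11.58 and 11.84 in the WT littermates, with little overlap. The log2 difference was -0.56 ± 0.14 (adjusted p = 0.00203), and its other 2 probes were also called lower, at -0.44 and -0.41. Slc25a12, the aspartate-glutamate carrier Aralar, fell by 0.20 on the log2 scale (adjusted p = 0.023), with 3 of its 5 probes called. Slc25a13, the liver form citrin, was not called by its brightest probe (0.04, adjusted p = 0.779) but was called higher by a dimmer one (0.36, adjusted p = 0.00393). Slc25a18 was not called (-0.08, adjusted p = 0.646).

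Among the other amino acid and glutathione carriers, 2 of 4 were lower and 1 was higher. Slc25a44, a carrier of branched-chain amino acids, had log2 intensities of 8.51, 8.66 and 8.80 in the KO mice and of 9.79, 10.19 and 10.44 in the WT littermates at its brighter probe. The KO mice lay far below every WT mouse, a 2.80-fold lower level (log2 difference -1.49 ± 0.10, adjusted p = 3.58e-12). The other probe did not follow: it read 9.58, 9.80 and 10.20 in the KO mice and 9.49, 9.55 and 9.97 in the WT littermates, with a log2 difference of 0.20 (95% interval -0.02 to 0.42, adjusted p = 0.176). Slc25a38, the glycine carrier needed for heme synthesis, was higher by 0.41 ± 0.10 (adjusted p = 0.00192), but not called with slides as blocks (0.30, adjusted p = 0.0848). Of the glutathione carriers, Slc25a40 fell by 0.31 on the log2 scale (adjusted p = 0.00455; -0.27 and 0.0696 with slides as blocks), and Slc25a39 was not called (-0.09, adjusted p = 0.167).

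The discordant probes of Slc25a44 are shown because the largest decreases of the family include a call that rests on 1 probe. Their first 30 of 60 bases are written 5′ to 3′ as the array design gives them, on mm9 positions 9802 bases apart on the minus strand, and the design assigns them to different RefSeq transcripts of the gene. Slc25a34, the carrier that rose most, has the same feature, with probes 4583 bases apart. Its dimmer probe was near background, at 5.76 to 6.01 over both groups of the total line, and gave 0.06 (adjusted p = 0.37).
Slc25a44 probe called lower, chr3:88214562-88214621: ccaaaacagctagaaatgttgacccattgg
Slc25a44 probe not called, chr3:88224424-88224483: tcgctgctaacgtacatcccaaacagtgct
Slc25a34 probe called higher, chr4:141174747-141174806: cccaagtgagaaaaattactccagatgaac
Slc25a34 probe not called, chr4:141179390-141179449: caggccccaggcacctacccacggccctac

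More widely, 28 of the 45 genes have several probes. All probes were called in 5 of these genes, some in 11 and none in 12, and no gene had probes called in opposite directions. The median range between probes of 1 gene was 0.20 on the log2 scale. Only Slc25a34 and Slc25a44 ranged over more than 1 log2 unit.

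**Figure D3:**
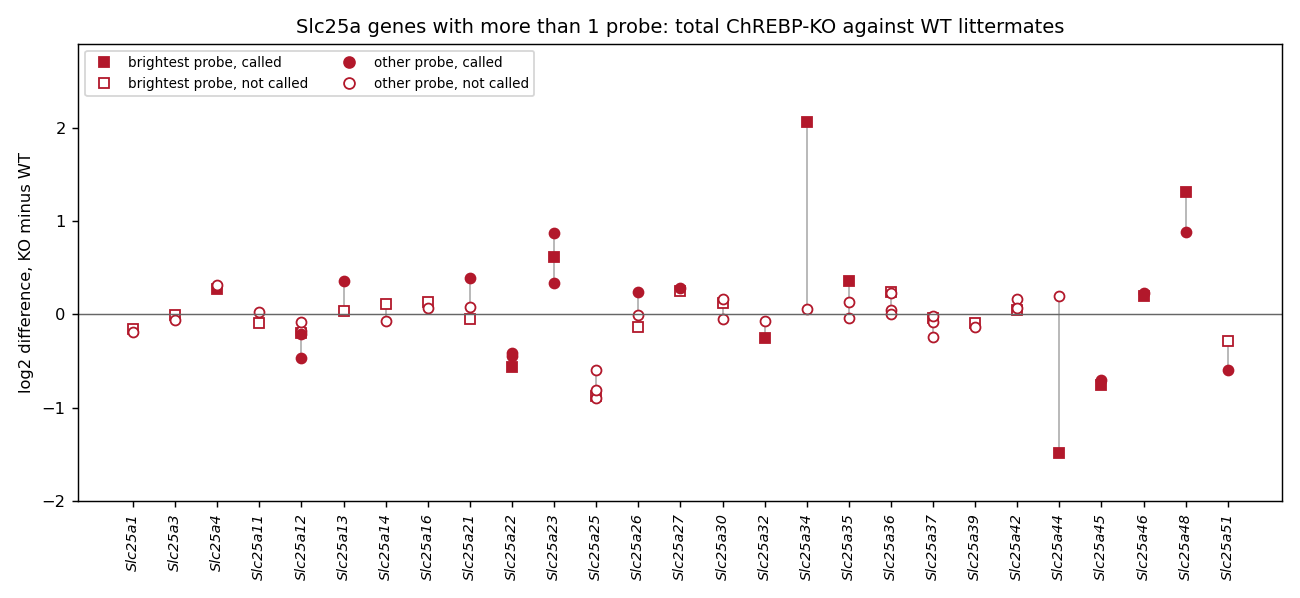
Log2 difference between total ChREBP-KO mice and WT littermates for the probes of Slc25a genes with more than 1 probe. Squares mark the probe with the highest mean and filled symbols an adjusted p under 0.05. The probes of Slc25a22, Slc25a23, Slc25a45, Slc25a46 and Slc25a48 are all filled, while those of Slc25a34 lie at 2.06 and 0.06 and those of Slc25a44 at -1.49 and 0.20.

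ADP/ATP, phosphate and ATP-Mg/phosphate carriers included 2 of 7 genes higher and 1 lower. Slc25a23, a calcium-regulated ATP-Mg/phosphate carrier, had log2 intensities of 9.46, 9.97 and 10.16 in the KO mice and of 9.18, 9.27 and 9.45 in the WT littermates. The groups just separated, with a log2 difference of 0.62 ± 0.09 (adjusted p = 2.63e-06), and its other probes were called at 0.87 and 0.34. Slc25a41, a relative of the same subfamily, moved the other way. It was dim, at 4.82 to 5.25 in the KO mice and 5.30 to 5.59 in the WT littermates, and the difference was -0.43 (adjusted p = 4.84e-05). Under other scalings and filters the value for Slc25a41 ran from -0.90 to -0.23.

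Slc25a25, another ATP-Mg/phosphate carrier, varied widely, from 10.39 to 13.18 in the KO mice and from 10.53 to 13.33 in the WT littermates. Its groups spanned almost the same range, and the difference of -0.87 (95% interval -1.76 to 0.01, adjusted p = 0.137) was not called. Slc25a24 gave 0.57 and was not called (adjusted p = 0.0598). KO replicates 1 and 4 read 9.49 and 8.42, the other KO mice 6.92 to 7.70 and the WT littermates 6.93 to 7.31. These 2 replicates were also highest in stellate cell markers, and a link was not tested. Within scan days the difference of Slc25a24 was 0.99 and -0.01. Slc25a4, an ADP/ATP translocase, was higher by 0.28 ± 0.08 (adjusted p = 0.00695). Slc25a5, another translocase, and the phosphate carrier Slc25a3 were not called, at 0.11 and -0.01.

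Of the cofactor and nucleotide carriers, 2 of 9 were higher and 2 lower. Slc25a33, a pyrimidine nucleotide carrier, was higher by 0.30 ± 0.10 (adjusted p = 0.019), and Slc25a32, which carries folate or FAD, fell by 0.26 on the log2 scale (adjusted p = 0.00763). Without the 3 arrays high in pancreas markers, both calls were lost, at 0.18 (adjusted p = 0.221) and -0.22 (0.0559). That of Slc25a33 was also lost without the adipocyte-high arrays (0.29, adjusted p = 0.0554), and that of Slc25a32 with slides as blocks (-0.19, 0.0854). Scaling the median signal to the 75th percentile also lost the call of Slc25a33 (0.27, adjusted p = 0.0508). Slc25a26, the S-adenosylmethionine carrier, was called higher at 0.24 and Slc25a51, the NAD carrier, lower at -0.59, each by a probe that was not its brightest. Slc25a16, Slc25a17, Slc25a36 and Slc25a42 were not called, with values from -0.18 to 0.24 at their brightest probes.

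The iron carriers Slc25a28 and Slc25a37 were not called, at 0.06 and -0.04. Of the uncoupling protein-like carriers, 1 of 3, Slc25a27, was called higher by its dimmer probe (0.29, adjusted p = 0.0156). That probe was very dim, at 5.13 to 5.33 in the KO mice and 4.67 to 5.23 in the WT littermates. The brighter probe of Slc25a27 gave 0.25 and was not called. Among the 3 tested genes listed as having no settled substrate, where Slc25a34 is not placed, Slc25a46, an outer membrane member linked to mitochondrial shape, was higher by 0.20 ± 0.05 (adjusted p = 0.00271) with no overlap between groups.

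Loss of ChREBPβ alone gave no call in the family. None of the 45 genes passed in ChREBPβ-deficient mice, where 0.00417% of all genes, 1 gene, did. That gene was Mlxipl, the edited gene, by its brightest probe (-0.45, adjusted p = 0.0152). At an unadjusted p under 0.05, 4 family probes were higher and 2 lower, 6 of 89, beside 4.98% of all probes. The differences of the 89 probes ran from -0.25 to 0.45 on the log2 scale, and the smallest adjusted p was 0.80.

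For 4 carriers called in total ChREBP-KO mice, Slc25a47, Slc25a44, Slc25a48 and Slc25a20, the interval of the difference here included 0. For Slc25a47, ChREBPβ-deficient mice read 15.15, 15.56 and 15.85 and their WT littermates 14.94, 15.48 and 15.85, a difference of 0.11 with a 95% interval of -0.14 to 0.35. Slc25a44 gave 0.08 (-0.12 to 0.28), Slc25a48 0.11 (-0.23 to 0.45) and Slc25a20 0.08 (-0.11 to 0.28). These intervals exclude the values found in the total line for the same probes.

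Slc25a34 had the largest difference of the family in ChREBPβ-deficient mice, at 0.45 (95% interval 0.05 to 0.85, unadjusted p = 0.0275, adjusted p = 0.989). Its log2 intensity was 8.03, 8.42 and 8.91 in these mice and 6.98, 8.19 and 8.63 in their WT littermates, with wide overlap. Slc25a10 gave 0.30 and Slc25a35 0.28, with unadjusted p of 0.0193 and 0.0182, and neither passed the adjustment. Slc25a12 had the smallest unadjusted p, 0.00112, at -0.24.

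The effects of the 2 deficiencies were compared directly as a difference of differences. Each effect was measured in its own line, so the lost isoforms and the line cannot be told apart in this comparison. For 7 Slc25a genes the effect in the total line was higher than in the ChREBPβ line and for 7 it was lower, beside 8.82% and 9.60% of all genes. Higher were Slc25a34, Slc25a48, Slc25a20, Slc25a23, Slc25a38, Slc25a13 and Slc25a46. Lower were Slc25a47, Slc25a44, Slc25a45, Slc25a22, Slc25a41, Slc25a40 and Slc25a32. For Slc25a10 the difference of 0.15 (95% interval -0.21 to 0.50, adjusted p = 0.64) was not called, so an unequal effect was not shown for the dicarboxylate carrier.

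The WT littermates of the lines also differed. In the WT mice of the total line, 4 Slc25a genes were higher and 13 lower than in the WT mice of the ChREBPβ line, beside 9.93% and 11.4% of all genes. The higher genes were Slc25a12, Slc25a32, Slc25a41 and Slc25a45. The call of Slc25a12 was lost without the 3 pancreas-high arrays (0.23, adjusted p = 0.0549), and those of Slc25a12 and Slc25a45 were each lost in 6 of the fits that left out 1 array. Slc25a16 and Slc25a28, among the lower genes, were also not called without the pancreas-high arrays (-0.19 and -0.15, adjusted p = 0.0602 and 0.0813), nor Slc25a16 without the adipocyte-high arrays (-0.16, 0.0901). With slides as blocks, 2 genes were higher and 4 lower. Markers of other tissues moved with this comparison: 3 of 5 exocrine pancreas markers (median 0.82) and 3 of 5 red blood cell markers (median 0.98) were higher in WT mice of the total line, 1 of 5 endothelial markers was higher and 1 of 6 adipocyte markers was lower. The red blood cell marker mean ranged from 12.20 to 12.57 in these mice and from 11.26 to 12.26 in the WT mice of the ChREBPβ line, and the part of these cells was not tested. This comparison shares its arrays with those above, and line, litter and any other difference between the colonies cannot be told apart in it. Slc25a34 was at 6.87 ± 0.39 (SD, n = 8) in WT mice of the total line and 8.01 ± 0.60 (n = 8) in those of the ChREBPβ line, with total ChREBP-KO mice at 8.93 ± 0.22 (n = 7). Slc25a48 was at 9.14 ± 0.41, 10.06 ± 0.45 and 10.46 ± 0.09 in the same groups, and Slc25a20 at 9.75 ± 0.23, 10.15 ± 0.20 and 10.35 ± 0.21. For these 3 carriers the WT mice of the ChREBPβ line were nearer to the total ChREBP-KO mice than to the WT mice of the total line.

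The 4 genes higher in WT mice of the total line were all lower in its KO mice. Both differences use the same WT arrays with opposite sign, so opposite directions are favoured in advance. Their WT differences were 0.43 for Slc25a32 (adjusted p = 8.61e-05), 0.36 for Slc25a45 (0.0309), 0.35 for Slc25a41 (0.00103) and 0.20 for Slc25a12 (0.0354), beside KO effects of -0.26, -0.75, -0.43 and -0.20. The largest decreases had no called WT difference. Slc25a47 was at 15.77 ± 0.21 and 15.45 ± 0.29 in the WT groups of the total and ChREBPβ lines and at 13.96 ± 0.25 in total ChREBP-KO mice. Slc25a44 was at 10.15 ± 0.21 and 9.98 ± 0.23 in the WT groups and at 8.67 ± 0.12 in the KO mice. The adjusted p of these WT differences was 0.0641 and 0.226. The WT lines separated without overlap at 1 family probe, beside 1.89% of all probes. It was the second brightest probe of Slc25a23, with a difference of -1.19 (adjusted p = 8.02e-05). Slc25a42, a carrier of coenzyme A, gave -0.34 in WT mice of the total line against those of the ChREBPβ line (adjusted p = 0.000246) while the KO effect was 0.05 (adjusted p = 0.583).

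Gene positions were read for all 45 tested genes from RefSeq on GRCm38.p6. They lie on 19 chromosomes, and 3 pairs of family genes are less than 100000 bases apart. Slc25a41 and Slc25a23 on chromosome 17 are 2056 bases apart with no gene starting between them, and they changed in opposite directions in total ChREBP-KO mice. Slc25a29 and Slc25a47 on chromosome 12 are 13956 bases apart, and only Slc25a47 was called. Slc25a43 and Slc25a5 on the X chromosome were both not called.

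The enzymes that work on either side of these carriers were read from lists of their own. The counts below stand beside 17.3% of all genes called higher and 17.1% called lower in total ChREBP-KO mice. Of 8 citrate-pyruvate shuttle enzymes, 5 were lower and 1 higher in total ChREBP-KO mice, with a median of -0.31 over 14 probes. Malic enzyme Me1 gave -3.18 and ATP citrate lyase Acly, which cleaves exported citrate, -2.72 on the log2 scale (adjusted p = 6.79e-10 and 1.79e-09), beside the value of -0.15 for the citrate carrier. Citrate synthase Cs gave -0.54 ± 0.14, pyruvate carboxylase Pcx -0.42 ± 0.06 and Idh1 -0.32 ± 0.06, all called.

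In the carnitine shuttle, 5 of 7 genes were higher and none lower, with a median of 0.31 over 13 probes. Cpt1a, the outer membrane step that precedes Slc25a20, was higher by 0.995 ± 0.20 (adjusted p = 0.000282), and Acsl1, which activates fatty acids, by 0.63 ± 0.11 (adjusted p = 2.7e-05). Cpt2, which follows the carrier inside, was not called (0.19, adjusted p = 0.105).

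Urea cycle enzymes gave 3 of 6 genes higher and none lower, with a median of -0.03 over 8 probes, beside the lower value of the ornithine carrier Slc25a15. Cps1, its first enzyme, was higher by 0.44 ± 0.14 (adjusted p = 0.0157), and Nags, which makes the activator of Cps1, by 0.43 ± 0.10 (adjusted p = 0.000971). Otc was called higher by 1 probe and not by its brightest (-0.08, adjusted p = 0.52).

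Of the malate-aspartate and glycerol phosphate shuttle enzymes, 3 of 6 were lower and none higher. Mitochondrial glycerol-3-phosphate dehydrogenase Gpd2 gave -2.11, aspartate aminotransferase Got1 -0.87 and Gpd1 -0.71 on the log2 scale. Got2, the mitochondrial aminotransferase, was not called (0.11, adjusted p = 0.0611).

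Of 9 carriers of other families in the same membrane, 2 were higher and 1 lower, beside 33.9% of all genes called either way. The pyruvate carrier subunits Mpc1 and Mpc2 were higher by 0.23 ± 0.07 and 0.38 ± 0.05, and Sfxn5 was lower by a probe that was not its brightest. Family members under other symbols gave 3 of 4 genes higher, among them the uncoupling proteins Ucp2 at 0.59 ± 0.16 and Ucp3 at 0.57 ± 0.16. Outer membrane and import genes, a group of 12 that every mitochondrion uses, had 6 lower and none higher, with a median of -0.04 over 26 probes and Tomm20 at -0.34 ± 0.08. None of these genes was called in ChREBPβ-deficient mice.

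**Figure D4:**
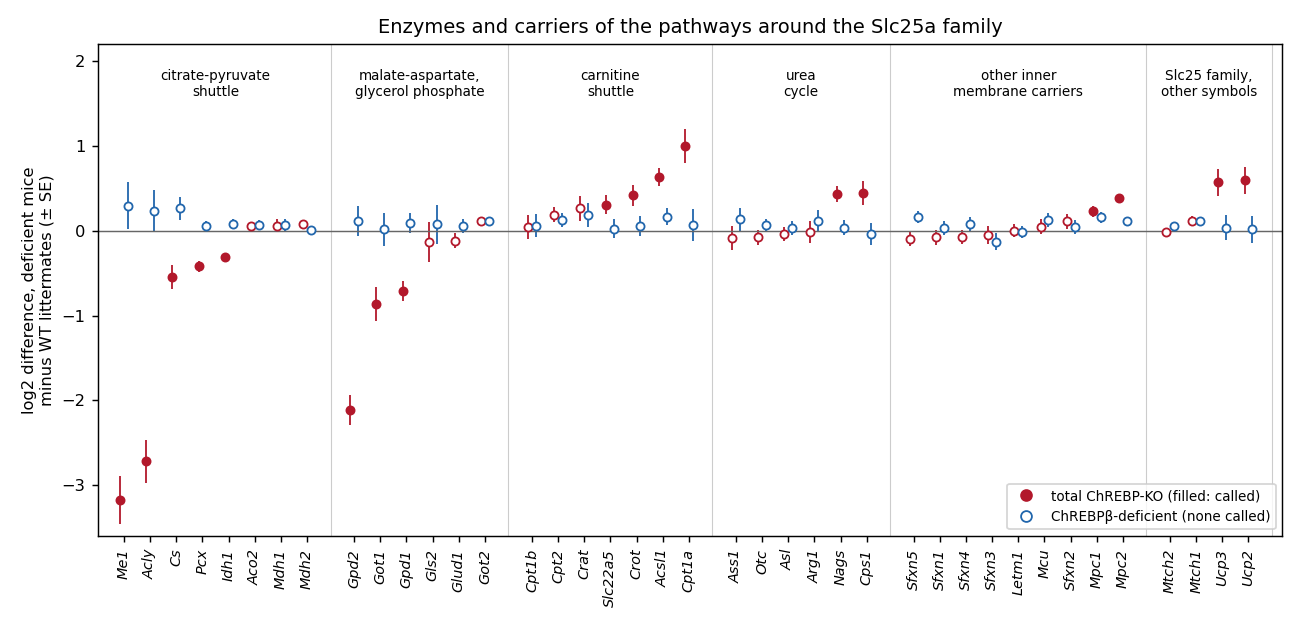
Log2 difference with its SE for enzymes and carriers of the pathways around the Slc25a family, in total ChREBP-KO mice (red) and ChREBPβ-deficient mice (blue) against WT littermates, 1 probe per gene, filled where called. Me1, Acly and Gpd2 lie lowest at -3.18, -2.72 and -2.11, and the called genes of the carnitine shuttle lie above 0, up to Cpt1a at 0.995.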

How the data were processed

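Per the labels and the study's methods, the authors hybridized liver RNA to single-color Agilent arrays, scanned them and read spots with Agilent Feature Extraction 10.10.1.1. They deposited spot intensities for each array and a table of log2 intensities that were quantile normalized without background subtraction. The same steps were computed here from the deposited median intensities in R 4.3.3. Of 59305 spots, 38721 were kept. These were flagged as found, positive and well above background on 26 or more arrays, or on 6 or more arrays of a group. They were quantile normalized, and spots of 1 probe were reduced to their median. These values correlated with the deposited log2 table at 0.999995403.

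A model with 4 groups was fitted to 36059 probes with limma 3.58.1, moderated standard errors and Benjamini-Hochberg adjustment over all probes. A gene was called when at least 1 probe had an adjusted p under 0.05, and is represented by its brightest probe over all arrays. Intervals are 95% intervals. The precision is limited by the number of arrays. Each array is 1 mouse, and 15 slides and 2 scan days were tried as blocks.

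The genes described in full are the 8 largest called differences in each direction at the brightest probe, and the citrate, carnitine, ornithine and dicarboxylate carriers. The members, the gene lists and the rule were chosen with earlier results of these data known. Other genes are named after their values were seen. The fit was tested on simulated data, where of 200 probes changed 1.25-fold 45% were recovered in the total line and 41% in the ChREBPβ line, and of 200 changed 1.5-fold 88.5% and 91.5%. Residuals were shuffled over arrays separately for each probe, which removes structure shared between probes, and only 200 of 36059 probes were changed. These rates therefore check the fit and do not give the power of the comparisons above. Promoters and gene positions are from RefSeq on GRCm38.p6, and probe positions are those of the array design on mm9. The values of 1 family gene are included in the counts but not reported here.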

Additional observations from a re-analysis of the deposited data

Results flagged for a closer look

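In 3 of the 72 groups examined, 1 mouse stood apart from the others, and chance alone gives about 1 group in 20. Slc25a20 read 9.93 in replicate 7 of the total ChREBP-KO mice, where the nearest mouse read 10.30. Slc25a38 read 9.78 in replicate 2 of the WT littermates of the total line, which is also the array highest in pancreas markers, and the nearest mouse read 9.35. Slc25a45 read 11.05 in replicate 2 of the ChREBPβ-deficient mice, with the nearest at 11.52.

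For 14 carriers the effect of losing total ChREBP in its line differed from that of losing ChREBPβ in the other line by the test of the difference (limma, Benjamini-Hochberg). Lost isoforms and line cannot be told apart in this test. Among the carriers with the higher effect in the total line, the difference was 1.61 for Slc25a34 (adjusted p = 0.000155), 1.20 for Slc25a48 (0.000698), 0.52 for Slc25a20 (0.00836) and 0.49 for Slc25a23 (0.00545). Smaller values were found for Slc25a38 at 0.47 (adjusted p = 0.0179), for Slc25a13 at 0.42 by its dimmer probe (0.0285) and for Slc25a46 at 0.28 by its dimmer probe (0.00882). For each of these 7 the effect in ChREBPβ-deficient mice lay between -0.06 and 0.45 on the log2 scale.

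Among the carriers with the lower effect, the difference was -1.91 for Slc25a47 (adjusted p = 5.4e-09), -1.56 for Slc25a44 (5.03e-09) and -0.77 for Slc25a45 (0.0015). Slc25a22 gave -0.56 (adjusted p = 0.0428), Slc25a41 -0.36 (0.0172), Slc25a40 -0.35 (0.0321) and Slc25a32 -0.31 (0.0358). These 4 calls were all lost without the 3 pancreas-high arrays, at -0.51 for Slc25a22 (adjusted p = 0.101), -0.29 for Slc25a41 (0.0795), -0.36 for Slc25a40 (0.061) and -0.27 for Slc25a32 (0.105). Without the 3 adipocyte-high arrays of the total line, Slc25a22 (-0.50, adjusted p = 0.0936) and Slc25a32 (-0.31, 0.0535) were not called. Of the 31 fits that left out 1 array, 18 lost the call of Slc25a22, 12 that of Slc25a32 and 7 that of Slc25a40. With slides as blocks, Slc25a32 (-0.26, adjusted p = 0.122), Slc25a40 (-0.32, 0.164), Slc25a38 (0.35, 0.196) and Slc25a23 (0.47, 0.0555) were not called. Scaling the median signal to the 75th percentile lost the call of Slc25a41 (-0.28, adjusted p = 0.328). The replicate block lost those of Slc25a32 (-0.29, adjusted p = 0.0674) and Slc25a41 (-0.36, 0.0536). Keeping dim probes lost those of Slc25a22 (-0.56, adjusted p = 0.0602) and Slc25a32 (-0.31, 0.0504).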

How the results depend on the processing

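No difference of a named carrier changed sign in the other settings run, at most 50 for any result. The family medians, which lie near 0, crossed it, from -0.04 to 0.03 in the total line, from -0.03 to 0.02 between the WT lines and from -0.02 to 0.01 for the difference between the deficiencies. No scaling moved the median of all probes by 0.1. In ChREBPβ-deficient mice no carrier was called under any adjusted test, and the unadjusted Mann-Whitney test gave 4 higher and 2 lower. The counts in total ChREBP-KO mice, 14 higher and 10 lower, became 12 and 7 when slides were fixed blocks, and 4 and 4 when a fold of 1.5 or more was required. For the difference between the deficiencies, the 7 higher and 7 lower became 3 and 3 with that fold, 4 higher with probes well above background on all arrays or with the slide block, 3 lower at an adjusted p under 0.01 and 4 lower without the 3 pancreas-high arrays, a choice made after seeing the data. For the WT lines, 4 higher and 13 lower became 0 and 3 with that fold, 2 and 7 under the stricter threshold, 2 and 8 by the adjusted Mann-Whitney test, 2 and 4 with the slide block and 2 higher with probes above background on all arrays, while 8 were higher by the unadjusted Mann-Whitney test. The cause was not tested.

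With single arrays left out, the total line gave 13 to 16 higher and 8 to 11 lower, the difference 6 to 9 and 4 to 8 (4 lower without ChREBPβ-deficient replicate 5 or 6), the WT lines 2 to 5 and 11 to 14 (2 higher without WT replicate 6 of the total line) and ChREBPβ deficiency 0. The replicate numbers were not taken to pair the mice, since not every same-numbered pair correlated above 0.1: 6 of 8 did in the ChREBPβ line (up to 0.53) and 2 of 7 in the total line. With the replicate block, total ChREBP-KO mice gave 14 higher and 10 lower, the difference 7 and 6, ChREBPβ deficiency 0 and the WT lines 4 and 13.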
